A study of Mus musculus with 30 samples.

Results

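The genes described are 32 mouse genes of the cell cycle and DNA replication, of 35120 genes counted, taken as a named list and matched by symbol to the Ensembl identifiers of the count table. All 32 had a row. They were read as 13 S phase and DNA replication genes and 19 genes of G2 and mitosis. They were measured in 30 strand-specific mRNA libraries of mouse white fat, in 6 groups. Male adipocytes came from Ctnnb1fl/fl controls (6 libraries) and from Ctnnb1AdKO mice (5), and female adipocytes from the same genotypes (6 and 6). Stromal-vascular cells (SVC), the pellet left when collagenase-digested fat is spun and the adipocytes float, came from male controls (3) and male Ctnnb1AdKO mice (4). The isolation is listed alike for every library, with the same concentrations of collagenase and of adenosine. Ctnnb1 encodes β-catenin, and Ctnnb1AdKO mice are labelled as its adipose knockout, compared with sex- and age-matched controls that carry the floxed allele. Ages, the driver of the deletion and the exons removed are not given in the labels. Epididymal and posterior subcutaneous depots are named together for every library, females included. Replicate numbers are not stated to be separate mice, so p-values measure the spread between these libraries.

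As background, cells that divide copy their DNA in S phase and part the copies in mitosis. Replication genes are switched on mainly by E2F factors as cells leave G1, and mitotic genes later by the MuvB complex with B-Myb and FoxM1. Mature adipocytes have left the cycle and rarely divide. The stromal-vascular fraction holds the preadipocytes, blood vessel cells and immune cells of fat, some of which do divide.

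Total counts ran from 20484836 to 22209603 per library. Adipocyte markers, 7 genes summed, ran from 35756 to 64973 CPM (counts scaled to the library total) in adipocytes and from 826 to 2050 in SVC, as the fraction labels would have it. Ctnnb1 itself showed no decrease with the knockout label: its log2 fold change, knockout minus control, was -0.03 (standard error, SE, 0.08, adjusted p = 0.919) in male adipocytes, 0.11 (SE 0.07, adjusted p = 0.670) in female adipocytes and 0.08 (SE 0.25, adjusted p = 0.979) in SVC. Counts over the whole gene need not show a deletion of some exons, and the libraries are called knockout here only as labelled. A pair of SVC libraries stood apart by transcripts of male germ cells. The 6 genes Prm1, Prm2, Tnp1, Tnp2, Odf1 and Akap4 summed to 2304 CPM in SVC knockout replicate 4 and to 400 CPM in SVC control replicate 1. The other SVC libraries held 1.72 to 96.1 CPM of them, the most in control replicate 2. Male adipocytes held 0 to 7.53 CPM and female adipocytes at most 0.0461 CPM. The SVC results below are therefore given with and without the pair. Control replicate 2 was kept, so the results without the pair are not free of germ transcripts.

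The proliferating cell nuclear antigen Pcna, the sliding clamp of DNA polymerases, was the highest of the 32 per kilobase of exon in every group. That length joins the exons of all annotated transcripts of a gene, so the order below also depends on the annotation. Pcna stood at 17.4 ± 3.65 CPM per kilobase of exon (SD, n = 6) in male control adipocytes and 63.8 ± 14.9 (n = 3) in control SVC. The next in male control adipocytes were the helicase subunits Mcm7, at 6.33 ± 0.507 CPM per kilobase, and Mcm4, at 3.91 ± 0.660, which did not overlap within 1 SD. Cyclin E1 (Ccne1, 2.30 ± 0.370 CPM per kilobase) and Mcm3 (2.23 ± 0.249) did not differ beyond their spread. At the bottom were the checkpoint kinase gene Bub1, at 0.00519 ± 0.00569 CPM per kilobase, and the kinetochore gene Cenpf, at 0.00537 ± 0.00389. In control SVC the order changed below Pcna: Mcm3 (11.3 ± 2.32 CPM per kilobase) and Mcm4 (11.3 ± 1.86) followed, and Cenpf (0.274 ± 0.212) was lowest. In adipocytes most mitotic genes therefore rested on few reads. Bub1 had 0 to 7 counts in an adipocyte library, Plk1 0 to 5 and Cenpf 0 to 10, and these 3 did not pass the filter on low counts in adipocytes.

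The promoters of the genes at the centre of the results differ between the S phase and mitotic genes. RefSeq promoter windows of 300 bases (250 before and 50 after the start, build GRCm38.p6) were found for 27 of the 32 genes, and Mcm4, Ccna2, Aurkb, Kif20a and Tpx2 were not matched. The motifs searched on both strands were TTTGAA or TTCGAA, the core of the cell cycle homology region of mitotic promoters, CCAAT, the box bound by NF-Y, and TTTNNCGC with each N a C or a G, the E2F site. TTTGAA or TTCGAA was in 12 of 15 mitotic and 2 of 12 S phase promoters, against 19.2% of all 32851 windows. CCAAT was in 14 of 15 and 8 of 12, against 37.4% of all. TTTNNCGC was in 1 of 15 and 5 of 12, against 2.27% of all. Among the members, CCAAT and TTTNNCGC matches overlapped once, in Mcm7, and no other matches of different motifs overlapped. Matches of the same motif overlapped in Mcm6 and Mcm5 (TTTNNCGC) and in Ube2c (CCAAT). The first 4 sequences below are mitotic: Aurka (chr2:172370521-172370820, minus strand), Plk1 (chr7:122159185-122159484, plus strand) and Cdc20 (chr4:118437294-118437593, minus strand), which were the most raised members in SVC knockout replicate 4 with Plk1 and Aurka foremost, and Mki67 (chr7:135716330-135716629, minus strand), which was not raised there. The last ones are the helicase genes Mcm6 (chr1:128359656-128359955, minus strand), lower in female than in male adipocytes, and Mcm7 (chr5:138171834-138172133, minus strand), the replication gene most raised in that SVC library. Their identifiers in the count table are ENSMUSG00000027496 (Aurka), ENSMUSG00000030867 (Plk1), ENSMUSG00000006398 (Cdc20), ENSMUSG00000031004 (Mki67), ENSMUSG00000026355 (Mcm6) and ENSMUSG00000029730 (Mcm7). Each is written 5′ to 3′ on the gene's strand, with the motif matches in capitals.
Aurka: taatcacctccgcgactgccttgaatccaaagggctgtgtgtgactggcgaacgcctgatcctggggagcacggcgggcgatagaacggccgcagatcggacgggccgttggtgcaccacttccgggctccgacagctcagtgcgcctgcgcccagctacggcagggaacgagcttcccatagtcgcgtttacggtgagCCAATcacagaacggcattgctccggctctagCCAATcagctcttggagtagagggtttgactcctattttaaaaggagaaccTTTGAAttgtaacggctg
Plk1: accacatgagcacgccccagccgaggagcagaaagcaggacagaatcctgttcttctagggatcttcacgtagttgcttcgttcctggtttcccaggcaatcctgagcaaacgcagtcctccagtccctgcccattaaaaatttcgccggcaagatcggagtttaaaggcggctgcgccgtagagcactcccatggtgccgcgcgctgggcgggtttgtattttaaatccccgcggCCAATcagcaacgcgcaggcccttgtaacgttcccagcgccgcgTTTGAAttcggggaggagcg
Cdc20: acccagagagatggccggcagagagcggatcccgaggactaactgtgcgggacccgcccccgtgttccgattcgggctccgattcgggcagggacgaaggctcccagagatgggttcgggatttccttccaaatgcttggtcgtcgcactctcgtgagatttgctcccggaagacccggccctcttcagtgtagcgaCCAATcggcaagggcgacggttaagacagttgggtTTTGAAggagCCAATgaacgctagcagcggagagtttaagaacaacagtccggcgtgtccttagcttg
Mki67: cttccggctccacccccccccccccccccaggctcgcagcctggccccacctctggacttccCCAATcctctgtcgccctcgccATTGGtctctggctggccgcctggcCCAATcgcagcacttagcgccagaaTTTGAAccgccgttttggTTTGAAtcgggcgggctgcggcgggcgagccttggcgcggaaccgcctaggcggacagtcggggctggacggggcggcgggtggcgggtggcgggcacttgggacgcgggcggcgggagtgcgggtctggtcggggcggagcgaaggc
Mcm6: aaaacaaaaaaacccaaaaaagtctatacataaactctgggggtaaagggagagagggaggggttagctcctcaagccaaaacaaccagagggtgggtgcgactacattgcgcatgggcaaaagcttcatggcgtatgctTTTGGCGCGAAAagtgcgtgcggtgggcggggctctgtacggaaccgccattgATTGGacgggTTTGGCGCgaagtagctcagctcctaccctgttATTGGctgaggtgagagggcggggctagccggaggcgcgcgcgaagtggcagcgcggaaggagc
Mcm7: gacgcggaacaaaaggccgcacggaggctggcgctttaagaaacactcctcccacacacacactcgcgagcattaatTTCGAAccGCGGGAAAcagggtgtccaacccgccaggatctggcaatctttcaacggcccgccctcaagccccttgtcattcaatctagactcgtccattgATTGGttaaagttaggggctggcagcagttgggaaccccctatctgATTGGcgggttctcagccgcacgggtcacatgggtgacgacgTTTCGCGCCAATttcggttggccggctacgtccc
Aurka, Plk1 and Cdc20 carry 1 match each to TTTGAA or TTCGAA and none to TTTNNCGC, whereas Mcm6 carries 3 matches to TTTNNCGC and none to TTTGAA or TTCGAA. Mki67 carries 2 matches to TTTGAA or TTCGAA and 3 to CCAAT, so its window holds the same letters as the 3 raised genes. Mcm7 holds all 3 kinds of motif. A match describes the letters of the window and not a bound site, and a missing match says only that the letters are not in these 300 bases.

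**Figure D1:**
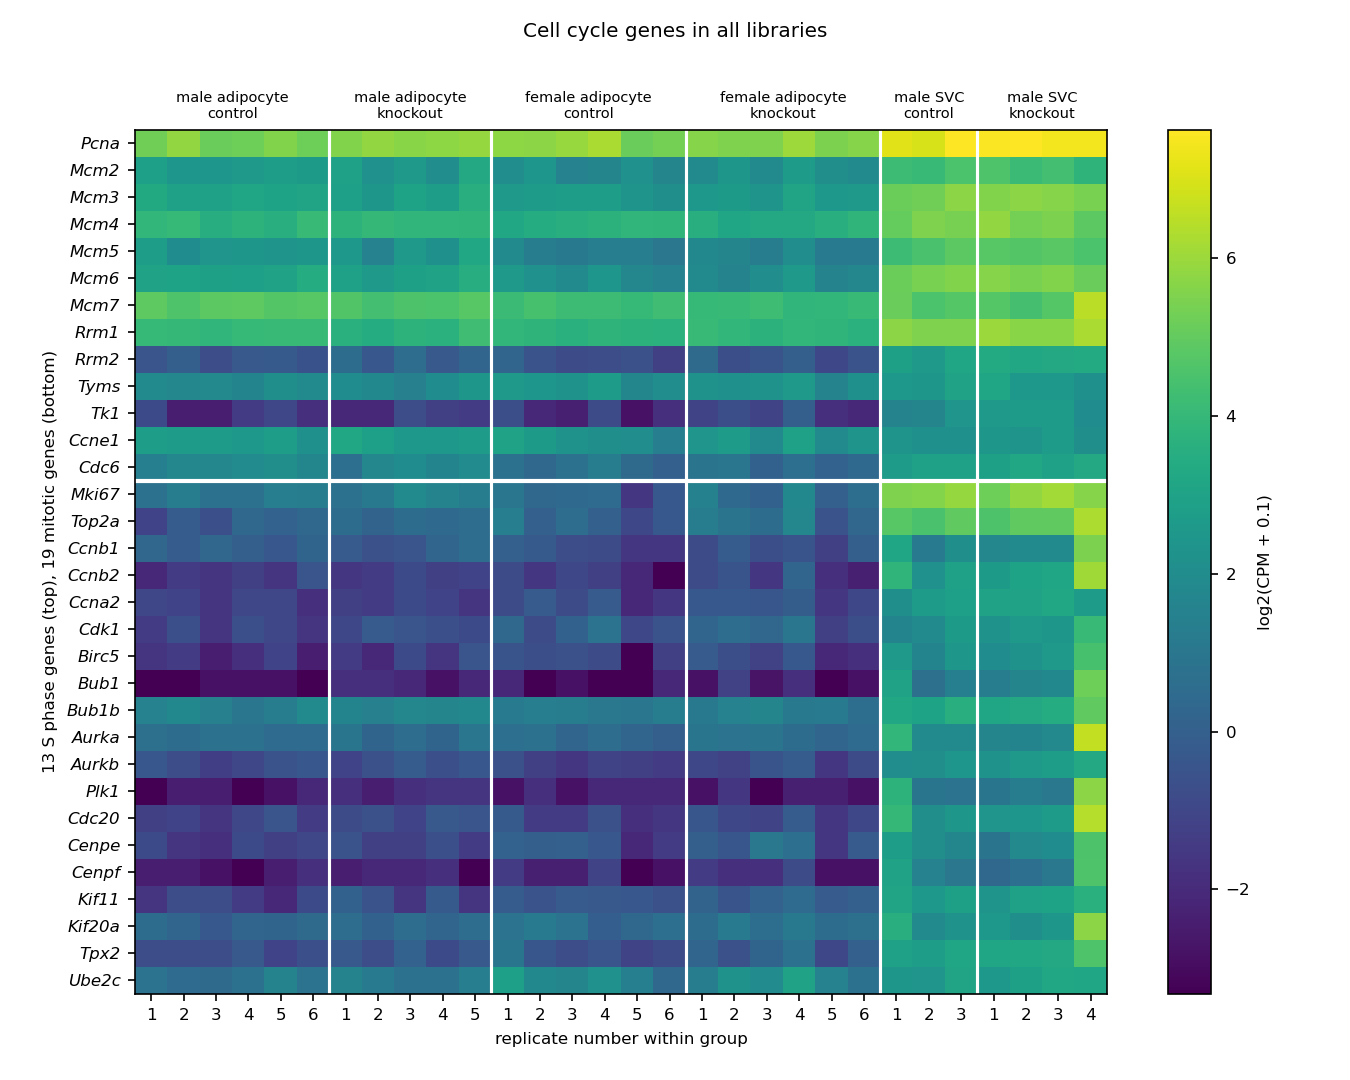
Levels of the 32 genes in each of the 30 libraries, as log2 of CPM plus 0.1 (colour), with the 13 S phase genes above and the 19 mitotic genes below. The SVC columns are higher for nearly all mitotic genes, and the column of SVC knockout replicate 4 stands out for Aurka (97.5 CPM), Cdc20 (85.6 CPM) and Plk1 (52.8 CPM) but not for Mki67 (50.5 CPM).

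In SVC no member was called between genotypes, where called means an adjusted p below 0.05 in edgeR's quasi-likelihood test over all genes. The background was also 0% (0 of 16404 genes called, 429 at an unadjusted p below 0.05). DESeq2 called 76 genes, 0 of them members. Fitted to all 7 libraries, 19 of 19 mitotic genes had a positive log2 fold change, knockout minus control, with a median of 0.88, and 12 of 13 S phase genes did, with a median of 0.23. The median over all genes was 0.04. Without knockout replicate 4, 9 of 19 mitotic genes were positive and the median was -0.018, while the S phase genes stayed at 12 of 13 with a median of 0.25. Without both germ-transcript libraries the mitotic median was 0.15 (15 of 19 positive) and the S phase median 0.14 (13 of 13). Mesothelial markers summed to 252 to 516 CPM in the SVC controls and 101 to 146 CPM in the knockouts, without overlap, with 0 of 7 called. Their part in the member values was not tested.

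The mitotic kinase genes Aurka, Plk1 and Bub1 were highest in the germ-transcript libraries. Cdk1, Aurkb and Bub1b were highest in knockout replicate 4 but not raised in control replicate 1. There Cdk1 (2.95 CPM) and Aurkb (4.00 CPM) were below every other SVC library. Bub1b (9.19 CPM) lay within 8.02 to 12.1 CPM, the range of the libraries outside the pair. Aurka, whose product builds the spindle poles, stood at 15.2, 3.72 and 3.72 CPM in the SVC controls and at 3.08, 3.02, 3.47 and 97.5 CPM in the knockouts. Only knockout replicate 4 was above all controls, and the other knockouts lay below every control. Its log2 fold change was 1.92 (SE 1.56, adjusted p = 0.968) over all libraries, -1.16 (SE 0.56) without knockout replicate 4 and -0.20 (SE 0.27) without both libraries. Plk1, the polo-like kinase that drives entry into mitosis, stood at 13.3, 1.84 and 1.72 CPM in controls and at 1.79, 2.36, 2.00 and 52.8 CPM in knockouts. Again knockout replicate 4 was highest and control replicate 1 next, with the other libraries within 1.72 to 2.36 CPM. Its log2 fold change went from 1.51 (SE 1.57) to -1.35 without knockout replicate 4 and to 0.23 without both libraries. The checkpoint kinase gene Bub1 stood at 7.96, 1.55 and 2.56 CPM in controls and at 2.43, 3.06, 3.32 and 37.4 CPM in knockouts. It followed the same order, with log2 fold changes of 1.60, -0.38 and 0.52 in the 3 fits.

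The activator of the anaphase-promoting complex and the B-type cyclins followed. Cdc20 stood at 15.8, 4.21 and 5.54 CPM in SVC controls and at 5.10, 5.37, 6.64 and 85.6 CPM in knockouts. Ccnb1, a partner of Cdk1, stood at 8.86, 2.18 and 4.23 CPM in controls and at 3.31, 3.63, 3.66 and 43.9 CPM in knockouts. Ccnb2, the other B-type cyclin, stood at 14.4, 4.54 and 7.58 CPM in controls and at 6.16, 8.11, 8.93 and 66.7 CPM in knockouts. In each of these 3 genes the groups overlapped. The log2 fold changes of 1.67, 1.48 and 1.40 became -0.51, -0.47 and -0.14 without knockout replicate 4, and 0.24, 0.14 and 0.35 without both germ-transcript libraries. The motor and kinetochore genes Kif20a, which acts in cytokinesis, Cenpe and Cenpf had log2 fold changes of 1.42, 0.85 and 0.88, which became -0.31, -0.58 and -1.35 without knockout replicate 4. Without both libraries they were 0.32, -0.23 and -0.55.

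**Figure D2:**
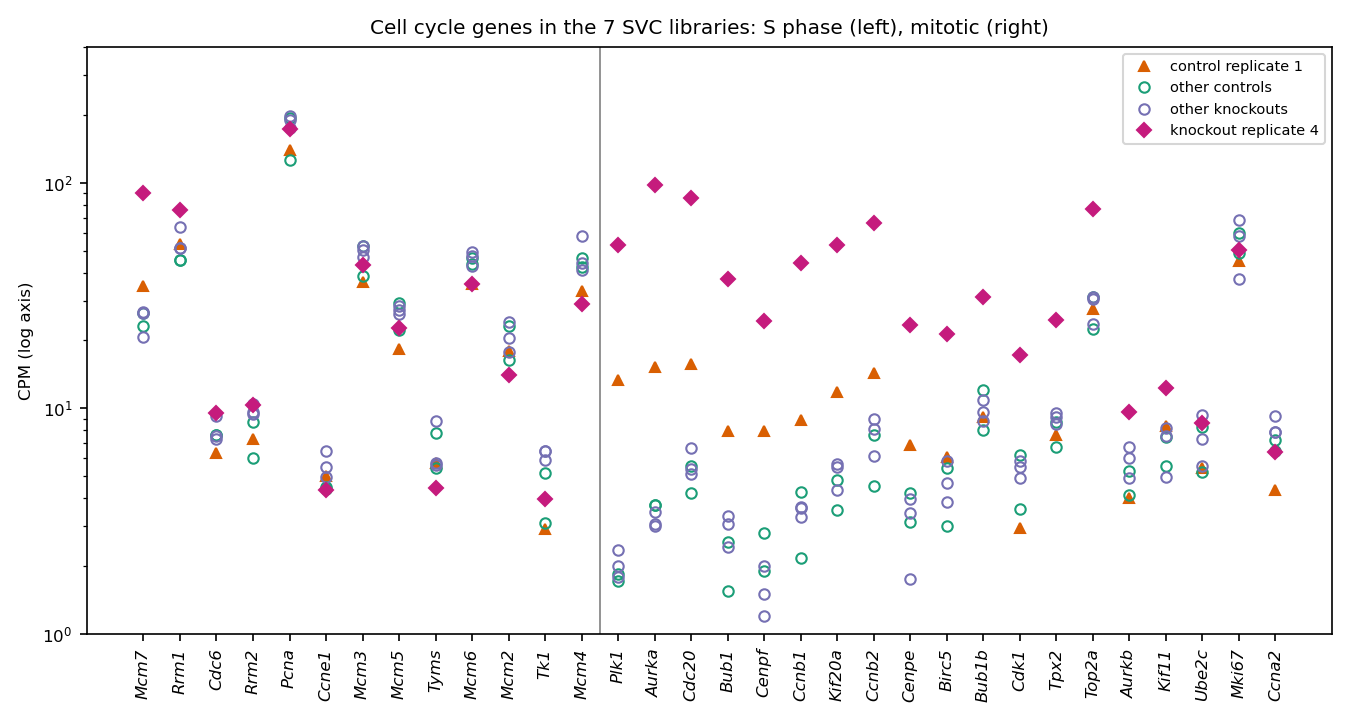
CPM of each member in the 7 SVC libraries. The vertical axis is logarithmic and the S phase genes are on the left. Knockout replicate 4 is highest for 16 of 19 mitotic genes, control replicate 1 is also above the other 5 libraries for 11 of them, and Mki67 and Ccna2 show no such gap.

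Other mitotic genes did not follow that library. Mki67, the standard marker of dividing cells, stood at 45.0, 48.7 and 60.0 CPM in SVC controls and at 37.5, 58.0, 68.6 and 50.5 CPM in knockouts. Cyclin A2 (Ccna2), which acts from S phase into G2, stood at 4.34, 6.48 and 7.26 CPM in controls and at 7.85, 7.87, 9.23 and 6.39 CPM in knockouts. Neither was highest in knockout replicate 4, and their log2 fold changes were 0.08 (SE 0.26) and 0.39 (SE 0.30) over all libraries. Levels were set against the median of the 5 SVC libraries other than knockout replicate 4 and control replicate 1. Those 5 held 1.72 to 96.1 CPM of the germ markers, the most in control replicate 2. Knockout replicate 4 was 28.8 times that median for Plk1, 28.1 times for Aurka and 15.9 times for Cdc20. It was 0.871 times for Mki67 and 0.814 times for Ccna2. It was above 2 times for 14 of 19 mitotic genes and 1 of 13 S phase genes, against 13.5% of 13969 genes with a median of at least 1 CPM. Control replicate 1 was above 2 times for 7 mitotic genes and 0 S phase genes, against 7.80% of genes. Across the 19 mitotic genes both sets of ratios ran in the same order (Spearman's rho 0.912, a description over genes that share the same 5 libraries as denominator).

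The further germ cell genes Ldhc and Ddx4 were also highest in SVC knockout replicate 4 and control replicate 1. Ldhc, the lactate dehydrogenase of male germ cells, stood at 153, 13.2 and 1.77 CPM in SVC controls and at 4.69, 1.08, 0.928 and 1287 CPM in knockouts. The germ cell helicase gene Ddx4 stood at 44.2 CPM in control replicate 1 and 207 CPM in knockout replicate 4, and at 0.551 to 2.22 CPM in the others. Both belong to an added list of 8 genes, which summed to at most 295 CPM in SVC controls and 2055 CPM in SVC knockouts. That list also summed to as much as 48.0 CPM in female knockout adipocytes, so it is not particular to male germ cells. All 6 genes of the germ marker list were above 0 in both libraries. These genes summed to 96.1 CPM in control replicate 2 and 1.72 CPM in control replicate 3. In that order Bub1 was at 1.55 and 2.56 CPM, Ccnb1 at 2.18 and 4.23 and Ccnb2 at 4.54 and 7.58. Cdc20 was lower in control replicate 2 too, Aurka was alike, and Plk1 was higher (1.84 and 1.72 CPM). Knockout replicate 4 also had the lowest endothelial (284 CPM) and mural (254 CPM) marker sums of the SVC libraries. Whether germ cell RNA gives the mitotic levels was not tested, and fewer cells of a type and less RNA per cell cannot be told apart in bulk libraries.

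Among the S phase genes of SVC, Mcm7 was the one that followed knockout replicate 4. It stood at 34.8, 23.2 and 26.5 CPM in controls and at 26.8, 20.8, 26.5 and 90.0 CPM in knockouts, and its log2 fold change went from 0.58 (SE 0.55) to -0.15 without that library and 0.01 without both. Rrm2, the regulated subunit of ribonucleotide reductase, was the only member whose SVC groups did not overlap. It stood at 5.99 to 8.65 CPM in controls and 9.47 to 10.4 CPM in knockouts. Of 17259 genes, 0.915% lay wholly above and 2.76% wholly below. The log2 fold change of Rrm2 was 0.46 (SE 0.24, adjusted p = 0.968), and 0.45 and 0.43 without knockout replicate 4 and without both libraries. Thymidine kinase (Tk1), of nucleotide salvage, was at 0.61 (SE 0.37), 0.77 and 0.61 in the same fits. The 13 S phase genes summed to 426 ± 58.3 CPM (SD, n = 3) in controls and 501 ± 22.1 (n = 4) in knockouts, or 497 ± 24.5 (n = 3) without replicate 4. The 19 mitotic genes summed to 184 ± 40.2 CPM in controls and 318 ± 285 in knockouts, or 176 ± 32.1 without replicate 4. On simulated data with these library sizes the SVC test recovered 0% of genes changed by a log2 of 1 and 12% of those changed by 2. The simulated spread was taken from all SVC libraries, the germ-transcript pair included, and recovery without the pair was not simulated.

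In male adipocytes 0 of 29 members tested were called, against 0.0703% of 14227 genes (3 higher and 7 lower, or 1 and 8 with upper-quartile scaling). The mitotic genes had a median log2 fold change of 0.25, with 13 of 16 positive, and the S phase genes 0.03, with 8 of 13 positive, beside 0.02 over all genes. The mitotic sum ran from 12.2 to 16.2 CPM in controls (median 14.3) and was 14.9 to 18.8 in knockouts, so the groups overlapped. Pcna stood at 34.9 to 57.3 CPM in controls (median 37.3) and 46.4 to 59.2 CPM in knockouts, a log2 fold change of 0.34 (SE 0.14, adjusted p = 0.309). Mcm7 went the other way, from 24.8 to 30.3 CPM in controls (median 28.5) to 20.7 to 27.1 CPM in knockouts, at -0.26 (SE 0.10, adjusted p = 0.251). Rrm1, the large subunit of ribonucleotide reductase, stood at 14.7 to 16.7 CPM in controls (median 16.0) and 10.8 to 19.0 CPM in knockouts, at -0.27 (SE 0.12, adjusted p = 0.328). These 3 were the only members at an unadjusted p below 0.05. Male knockout replicate 5 decides the call of Rrm1: without it the log2 fold change was -0.43 (adjusted p = 0.0245) and 332 genes were called in place of 10. Bub1 was the 1 member without overlap in CPM, at 0 to 0.0453 CPM in controls and 0.0454 to 0.184 CPM in knockouts. These are 0 to 4 counts, and 0.0453 and 0.0454 CPM are both 1 count. The groups thus meet in counts and part only by library size, and Bub1 was not tested. Of 13224 genes with a mean of at least 0.5 CPM, which Bub1 did not reach, 1.04% lay wholly above and 0.786% wholly below.

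In female adipocytes 0 of 29 members were called, against 0.471% of 14227 genes. All 16 mitotic genes tested had a positive log2 fold change, from 0.10 to 0.82, with a median of 0.40, and the S phase genes had a median of 0.12 with 7 of 13 positive, beside 0.01 over all genes. Mki67 stood at 0.230 to 1.88 CPM in controls (median 1.23) and 0.934 to 3.41 CPM in knockouts (median 1.33), so the groups overlapped widely. Its log2 fold change of 0.76 (SE 0.34, adjusted p = 0.436) was the only one at an unadjusted p below 0.05. Top2a, which untangles sister chromatids, stood at 0.414 to 2.49 CPM in controls (median 0.930) and 0.607 to 3.22 CPM in knockouts (median 1.56), at 0.66 (SE 0.36, adjusted p = 0.540). Ccnb2 had 0.82 (SE 0.50, adjusted p = 0.608), Tk1 0.85 (SE 0.50, adjusted p = 0.587) and Cenpe 0.70 (SE 0.39, adjusted p = 0.554). Their spread between libraries was as large as the difference. The mitotic sum was lowest in female control replicates 5 and 6 (10.1 and 10.9 CPM), which also had low mural marker sums (135 and 157 CPM). It was highest in female knockout replicate 4 (31.9 CPM), which had the highest mural sum (508 CPM). Between the same groups the macrophage marker sum went from 398 ± 124 CPM in controls to 213 ± 89.0 CPM in knockouts (SD, n = 6 each), and the mesothelial sum from 30.8 ± 15.1 to 11.6 ± 3.82 CPM. The part of these cells in the mitotic levels was not tested.

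The difference of the genotype effects between females and males was called for 0 of 29 members, against 0.0141% of 14227 genes, 2 in number. Its median was 0.13 for S phase and 0.09 for mitotic genes. Rrm1 had the smallest p, at 0.44 (SE 0.16, adjusted p = 0.432), and was called without male knockout replicate 5, at 0.61 (adjusted p = 0.0496). The simulated recovery at a log2 change of 1 was 79% in males and 73% in females over all genes, which does not extend to members with a handful of counts.

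**Figure D3:**
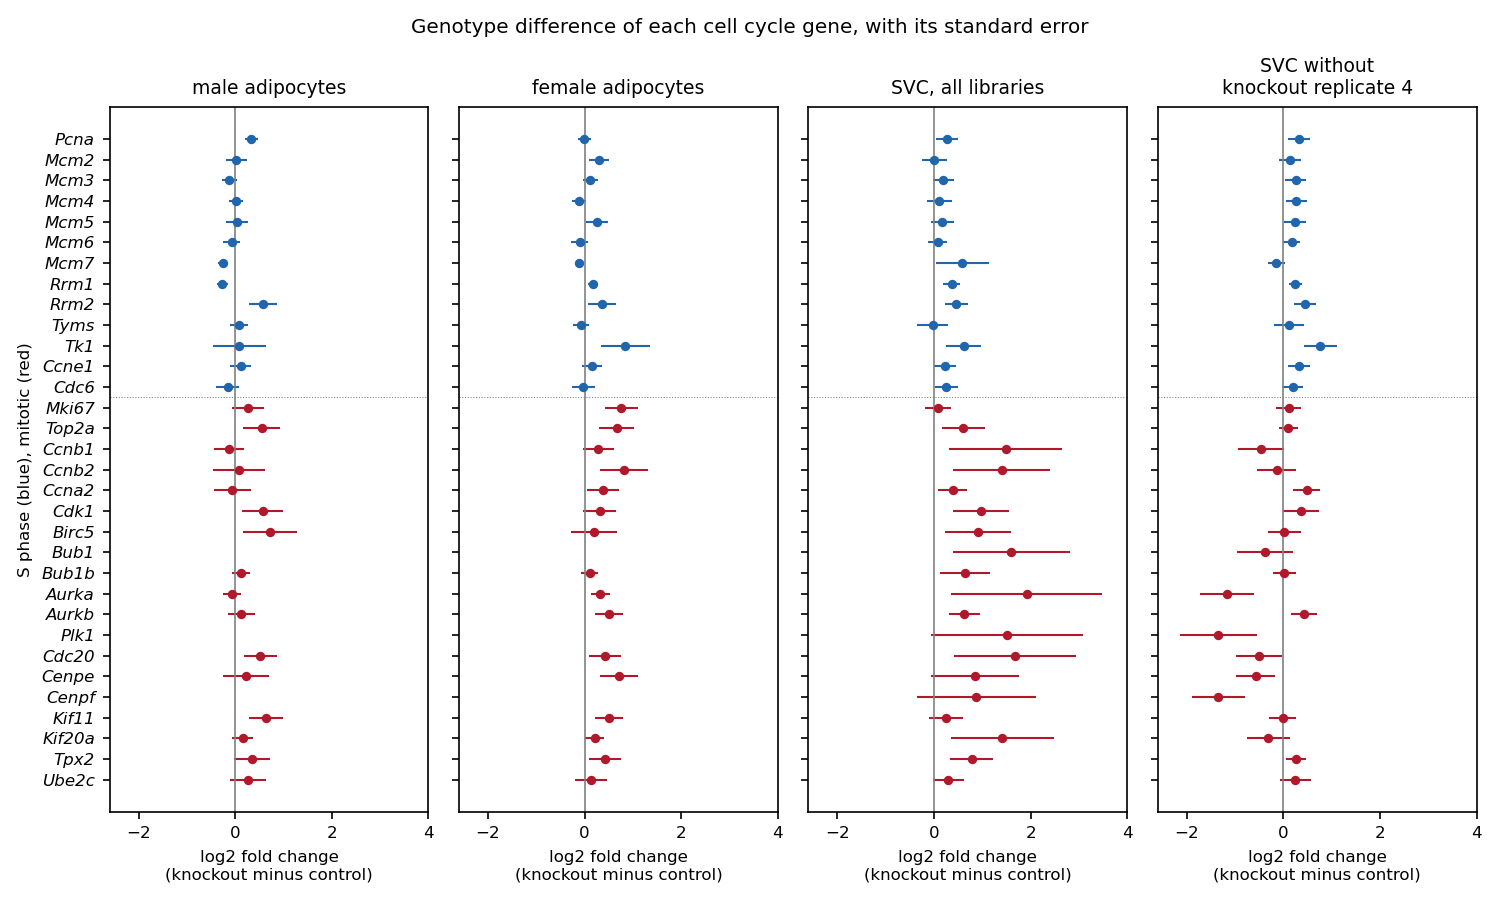
Log2 fold change, knockout minus control, of each member with its standard error in male adipocytes, female adipocytes and SVC, the last also without knockout replicate 4. No value passed the test, and the mitotic values of SVC move from a median of 0.88 to -0.018 when that library is left out.

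Fractions were compared within males. In controls, 18 of 19 mitotic genes were higher in SVC than in adipocytes, with a median log2 difference of 3.65, and 9 of 13 S phase genes were higher and 1 lower, with a median of 1.13. The background was 44.2% of 17251 genes called higher and 32.8% called lower, and the median over all genes was 0.29. Bub1 had the largest difference, 6.59 (SE 0.95, adjusted p = 7.93e-06), from 0 to 0.0453 CPM in adipocytes to 1.55 to 7.96 CPM in SVC. With 0 or 1 counts in each adipocyte library, the size of that difference depends on the prior count of the fit. Mki67 rose from 1.59 to 2.49 CPM in adipocytes (median 2.02) to 45.0 to 60.0 CPM in SVC, a log2 difference of 4.14 (SE 0.24, adjusted p = 1.84e-10). Top2a rose by 4.47 (SE 0.34, adjusted p = 2.99e-09), from 0.362 to 1.18 CPM (median 0.907) to 22.4 to 31.1 CPM. The groups lay wholly apart for all 19 mitotic and 11 of 13 S phase genes, where 51.3% of 15728 genes were wholly higher in SVC.

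The smallest mitotic differences called were those of Bub1b, Ube2c and Ccnb1. Cyclin B1 (Ccnb1) was higher by 1.84 (SE 0.65, adjusted p = 0.0163), Ube2c, the ubiquitin-conjugating enzyme of the anaphase-promoting complex, by 1.34 (SE 0.29, adjusted p = 0.000570) and the checkpoint gene Bub1b by 1.32 (SE 0.31, adjusted p = 0.00103). The call of Ccnb1 was lost without SVC control replicate 1 (1.31, adjusted p = 0.118) and with limma-voom (1.66, adjusted p = 0.0712). Aurka missed the threshold, at 1.76 (SE 0.83, adjusted p = 0.0633), and passed it with upper-quartile scaling (1.89, adjusted p = 0.0459) and without both germ-transcript libraries, at 0.88 (adjusted p = 0.00323). The remaining mitotic genes rose by 2.03 (Kif20a) to 5.79 (Plk1), among them Cdk1, the kinase that drives mitosis (3.02), Ccna2 (3.65), Ccnb2 (4.28) and Cdc20 (3.92). Of the chromosomal passenger genes, survivin (Birc5) rose by 4.01 and the kinase gene Aurkb by 2.55. The spindle genes Kif11, a motor that pushes the poles apart, and Tpx2, which activates Aurora A, rose by 3.80 and 3.35, and Cenpe and Cenpf by 3.20 and 4.98.

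The replication genes split. The helicase genes Mcm2 (1.13), Mcm3 (1.83), Mcm4 (1.00), Mcm5 (1.62) and Mcm6 (1.82) and Pcna (1.37) rose, as did Rrm1 (1.04), Rrm2 (2.89) and Tk1 (3.38). Mcm7 did not move with its helicase partners, at -0.54 (SE 0.31, adjusted p = 0.113). Mcm7 stood at 24.8 to 30.3 CPM in control adipocytes and at 23.2 to 34.8 CPM in control SVC, so the ranges overlapped. Without both germ-transcript libraries it was called lower, at -0.63 (adjusted p = 0.00116). The CPM ranges still overlapped then, so that call rests on the fitted difference, scaled by TMM. Ccne1, which with Cdk2 drives entry into S phase, was the member called lower in SVC. It stood at 4.38 to 7.05 CPM in adipocytes (median 6.40) and at 4.40 to 5.00 CPM in SVC, a log2 difference of -0.95 (SE 0.22, adjusted p = 0.000831). The CPM ranges overlapped while the fitted difference, scaled by TMM, was called. Thymidylate synthase (Tyms, 0.31, adjusted p = 0.304) and the helicase loader gene Cdc6 (0.56, adjusted p = 0.0569) were not called. In CPM both lay wholly higher in SVC, as did 51.3% of 15728 genes, while the fitted differences were scaled by TMM. Cdc6 was called higher with DESeq2's size factors (adjusted p = 0.0416), upper-quartile scaling (adjusted p = 0.0246), DESeq2 (adjusted p = 0.0251) and limma-voom (adjusted p = 0.0471). It was also called without male control adipocyte replicate 5 (adjusted p = 0.0443), without SVC control replicate 1 (0.70, adjusted p = 0.0399) and without both germ-transcript libraries (adjusted p = 0.0229).

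**Figure D4:**
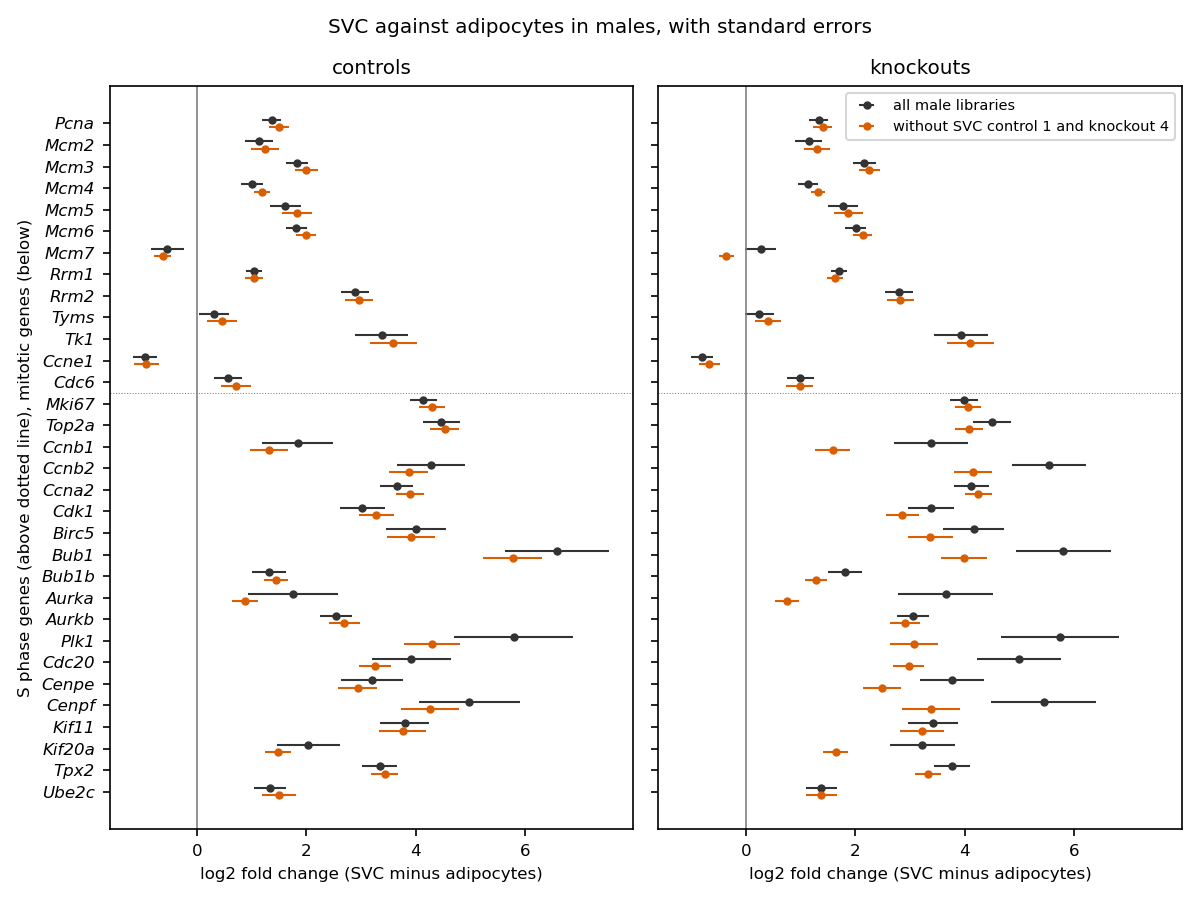
Log2 difference, SVC minus adipocytes in males, of each member with its standard error, in controls and in knockouts, with all libraries and without both germ-transcript libraries. Mitotic genes lie between 1.32 and 6.59 in controls with all libraries, and Ccne1 and Mcm7 are the members below 0.

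In knockouts 19 of 19 mitotic genes were higher in SVC, with a median of 3.77, and 10 of 13 S phase genes were higher and 1 lower, with a median of 1.33, where 44.7% of genes were called higher and 31.8% lower. Without both germ-transcript libraries the mitotic median was 3.43 in controls and 3.07 in knockouts, with 19 of 19 called in each, and 10 of 13 S phase genes were higher and 2 lower in each. Without knockout replicate 4 alone 18 of 19 were called in knockouts, Aurka missing (0.75, adjusted p = 0.0645). Without them Aurka went from a log2 difference of 3.65 to 0.75 (adjusted p = 0.0056) in knockouts, and Plk1 from 5.74 to 3.07. Ccnb1 went from 3.38 to 1.58, Kif20a from 3.22 to 1.64, Cdc20 from 4.99 to 2.98, Bub1 from 5.81 to 3.98 and Cenpf from 5.45 to 3.39, all still called. Mcm7 changed from 0.27 to -0.36 (adjusted p = 0.0198) and was then called lower. Its CPM ranges overlapped between the fractions, so that call rests on the fitted difference, scaled by TMM. The counts above come from the fit without pairing. With the number in the column name as a block, which pairs adipocytes and SVC of the same number, 27 of 32 members were higher and 0 lower. Ccne1 (-0.61, adjusted p = 0.0759), Cdc6 (0.71, adjusted p = 0.0529) and Aurka (2.08, adjusted p = 0.156) lost their calls with the block. Aurka also lost its call with limma-voom (2.03, adjusted p = 0.0669). The difference between the genotype effects of the fractions was called for 0 of 32 members, against 0% of 17251 genes (1149 at an unadjusted p below 0.05, and 22 by DESeq2). Markers of other cells moved with the fraction: macrophage markers summed to 574 to 1111 CPM in male adipocyte libraries and 5611 to 10968 CPM in SVC. Preadipocyte and fibroblast markers went from 424 to 619 CPM to 7317 to 12801 CPM. Which SVC cells carry the members was not tested.

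Control adipocytes of females and males differed in many genes. Of 29 members 12 were called, near the background of 43.8% of 14227 genes, with 23.7% higher in females and 20.1% lower. Of 13 S phase genes 6 were lower in females and 1 was higher, with a median log2 difference of -0.34. Of 16 mitotic genes 3 were higher and 2 lower, with a median of 0.43. The median over all genes was 0.05. Cell make-up and any difference in when the libraries were made cannot be told apart from sex.

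The helicase genes carried the female decrease. Mcm6 stood at 7.25 to 11.0 CPM in male controls (median 7.86) and 2.84 to 5.87 CPM in females (median 4.06), without overlap, with a log2 difference of -0.99 (SE 0.18, adjusted p = 0.000133). Mcm5 stood at 3.95 to 6.92 CPM in males (median 5.29) and 1.91 to 3.71 CPM in females (median 2.39), and fell by 1.12 (SE 0.23, adjusted p = 0.000433). Mcm7 stood at 24.8 to 30.3 CPM in males (median 28.5) and 16.1 to 21.9 CPM in females (median 18.2), and fell by 0.61 (SE 0.09, adjusted p = 1.44e-05). No female control reached the lowest male control in these 3 genes. Cdc6, which loads the helicase on origins, stood at 2.58 to 4.17 CPM in males (median 3.25) and 0.932 to 2.32 CPM in females (median 1.45), and fell by 1.19 (SE 0.23, adjusted p = 0.000239). Mcm3 fell by 0.53 (SE 0.15, adjusted p = 0.00734), also without overlap, and Mcm2 by 0.70 (SE 0.21, adjusted p = 0.00810). Mcm4 was at -0.19 (SE 0.14, adjusted p = 0.262), so 1 of the 6 helicase genes was not called. The members that lay apart without overlap were 5 S phase genes below and 1 mitotic gene above, where 11.6% and 9.63% of 13387 genes did so.

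The female knockouts gave levels near those of the female controls, with Mcm6 at 2.85 to 5.78 CPM, Mcm5 at 2.10 to 4.03 CPM, Mcm7 at 14.8 to 18.9 CPM and Cdc6 at 0.949 to 1.88 CPM. Male knockouts ranged more widely, with Mcm6 at 5.90 to 11.3 CPM, Mcm5 at 2.83 to 9.30 CPM and Cdc6 at 1.52 to 3.93 CPM. Sex was tested in the controls alone.

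The mitotic genes did not move one way. Cdk1 stood at 0.225 to 0.544 CPM in male controls (median 0.340) and 0.414 to 1.71 CPM in females (median 0.787), and rose by 1.23 (SE 0.39, adjusted p = 0.0130). Kif11 stood at 0.136 to 0.499 CPM in males (median 0.362) and 0.559 to 0.798 CPM in females (median 0.715), without overlap, and rose by 0.98 (SE 0.33, adjusted p = 0.0194). Ube2c stood at 1.26 to 2.90 CPM in males (median 1.65) and 1.16 to 7.23 CPM in females (median 3.25), and rose by 1.03 (SE 0.35, adjusted p = 0.0193). Against these, Mki67 stood at 1.59 to 2.49 CPM in males and 0.230 to 1.88 CPM in females (median 1.23), and fell by 0.91 (SE 0.34, adjusted p = 0.0347). Ccnb1 stood at 0.680 to 1.13 CPM in males (median 0.973) and 0.230 to 0.939 CPM in females (median 0.485), and fell by 0.90 (SE 0.31, adjusted p = 0.0212). The last of the called members was Tyms, which makes thymidylate, higher by 0.46 (SE 0.18, adjusted p = 0.0364). These calls rest on few counts, and single libraries ended some of them. Tyms lost its call in 9 of 12 fits with a library left out and with no filter on low counts (0.43, adjusted p = 0.0873). Mki67 lost it in 5, with adjusted p up to 0.0644 without male control replicate 5. Kif11 lost it in 3, Ube2c in 2 and with limma-voom (0.91, adjusted p = 0.0506), and Cdk1 in 1, without female control replicate 4 (0.93, adjusted p = 0.0612). Rrm1, not called in the fit reported, was called lower with DESeq2's size factors (-0.30, adjusted p = 0.0333), DESeq2 (adjusted p = 0.0260) and limma-voom (adjusted p = 0.0449), and without 1 library in 6 of 12 fits. Of the other members not called, Pcna was called higher in 3 of those fits and Aurkb lower in 2. Ccne1 and Bub1b were called lower, and Kif20a, Birc5 and Cenpe higher, in 1 fit each. Without female control replicate 1 the mitotic median was 0.018. The 6 S phase genes called lower and Ccnb1 kept their calls in every fit run. Macrophage markers were lower in females too, with 7 of 12 called lower, and 5 of 8 preadipocyte markers were called higher. Their part in the member differences was not tested.

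**Figure D5:**
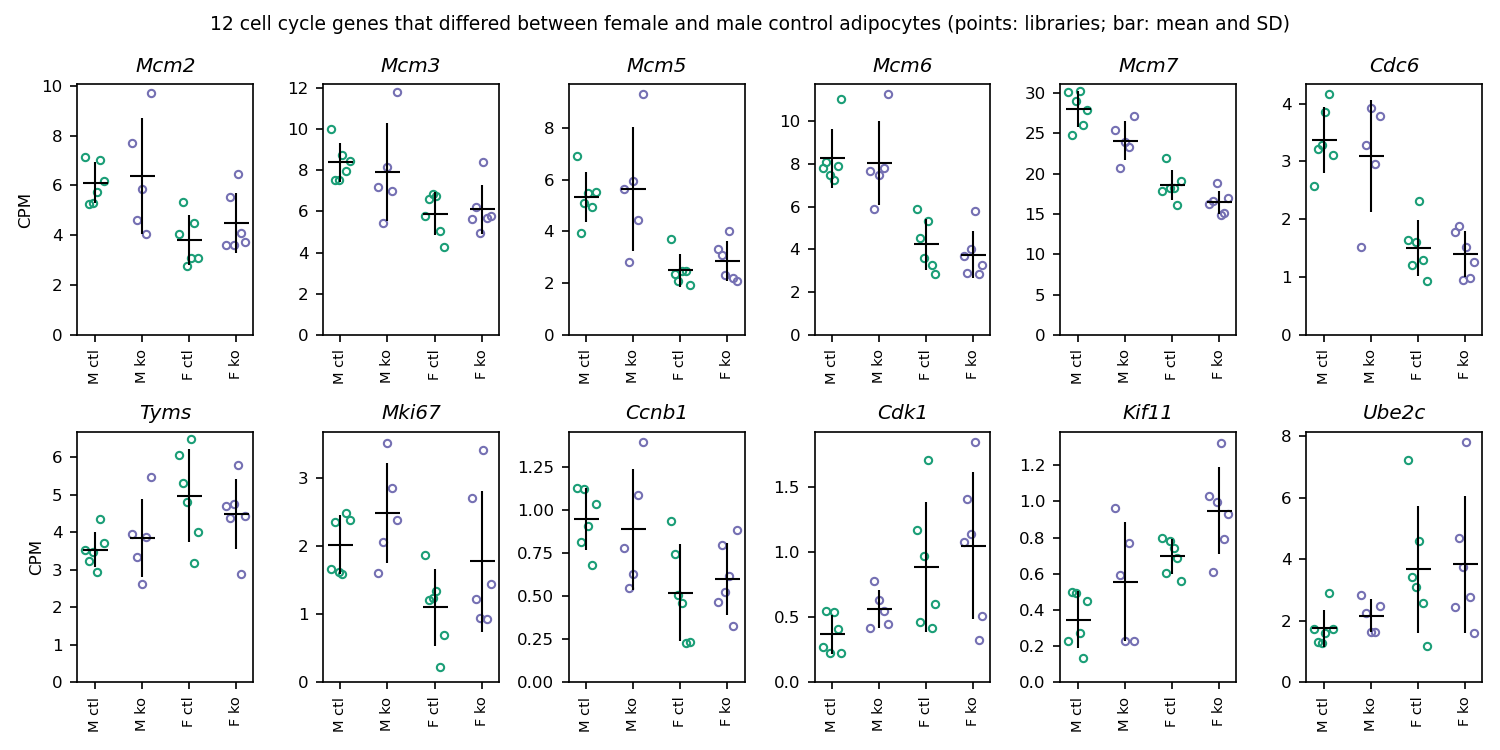
CPM of the members called between female and male control adipocytes, in each library of the 4 adipocyte groups (M male, F female, ctl control, ko knockout), with bars for the mean and SD. Mcm5, Mcm6, Mcm7 and Cdc6 are lower in every female control than in any male control, and Kif11 is higher in every female control.

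Members varied together within groups, as a description with no test, since libraries share depth and cell make-up. Over the 23 adipocyte libraries, with group means taken out, the median Pearson correlation between pairs was 0.36 within the mitotic genes, 0.33 within the S phase genes and 0.33 between them. Over the 7 SVC libraries it was 0.86 within the mitotic genes and -0.28 between mitotic and S phase genes. Without knockout replicate 4 these were 0.50 and 0.08.

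Related genes outside the list were counted from named lists. In the male control fraction comparison, where 44.2% of all genes were called higher and 32.8% lower, 46 of 51 other mitosis genes were called higher in SVC and 2 lower, with Cenpa, the centromere histone, at 4.24. Of 35 other replication genes, 19 were higher and 7 lower, with the kinase activator gene Dbf4 at 3.65, the licensing gene Cdt1 at 2.96 and Gins4 at -2.02. Among G1 cyclins and kinases 4 of 8 were higher and 2 lower, Ccnd1 at 3.14, Cdk6 at 2.57 and Ccnd3 at -0.72. The inhibitors of those kinases divided too, with 4 of 7 higher and 2 lower, Cdkn1b at 1.75, Cdkn2c at -4.50 and Cdkn2b at -2.09. Of Rb and E2F factors 5 of 13 were higher and 3 lower, E2f2 at 3.63, E2f5 at 1.17 and E2f6 at -1.30. Several of these shares were near that background. Of the mitotic factors 3 of 6 were higher and 3 lower, Foxm1 at 2.87, Mybl2 at 2.68 and Lin52 at -1.41. Between female and male controls, where 20.1% of all genes were lower and 23.7% higher, 10 of 32 other replication genes were lower and 4 higher, Pole, a polymerase subunit, at -1.30, Cdc45 at -0.97 and Timeless at 1.03. Of 28 other mitosis genes 6 were lower and 6 higher, and 4 of 7 kinase inhibitors were higher, Cdkn2a at 1.40. No gene of these lists was called between genotypes in any fraction. The smallest adjusted p-values were those of Rfc4, a clamp loader subunit, at 0.55 in female adipocytes (adjusted p = 0.0590) and 0.56 in male adipocytes (adjusted p = 0.111).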

How the data were processed

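The 30 libraries of 6 groups were read from the authors' deposited table of raw counts per gene, whole numbers with 33501 of 35120 genes carrying a symbol. The build was mm39, and STAR 2.7.11a, FastQC 0.12.1 and DESeq2 are named, per the submitters' processing notes. Which program counted the reads, with which annotation and strand setting, is not given in the sources used here, so reads shared by overlapping or copied genes may have been split or dropped. A deposited table of log2 values (rlog) was not used. No per-sample column was left out (0). No pair of libraries within a group agreed within sampling noise (chi-square per degree of freedom of at least 12.9).

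Counts were tested with edgeR 4.0.16 in R 4.3.3: TMM scaling, filterByExpr with a minimum count of 10, robust quasi-likelihood fits, and Benjamini-Hochberg adjustment over all genes tested, with calls below 0.05. The 23 adipocyte libraries, the 7 SVC libraries and the 18 male libraries were fitted apart. Alternatives were DESeq2 1.42.0, limma 3.58.1 (voom), other scalings, no filter, replicate blocks and each library left out. Leaving out both germ-transcript libraries was added after the data were seen. Members and lists were chosen with earlier results of these data known. All 32 members were named, and from each related list the genes of smallest adjusted p. Lin54 was not analysed here. Levels are CPM of the library total, or per kilobase of exon union from GENCODE vM21. Intervals of counting error are not given, since each group has replicates.

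Adipocyte and SVC libraries of knockout males share column numbers 3, 4 and 6. Their deviations from group means correlated at 0.19, 0.24 and 0.18. These numbers were taken to pair the samples in an alternative fit, whose values stand beside that comparison. The labels do not state this pairing, and the fit reported does not use it. The test was checked on simulated counts with 200 changed genes.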

Additional observations from a re-analysis of the deposited data

Results flagged for a closer look

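In 170 sets of values (the 32 genes and both sums, each in the 5 groups of 4 to 6 libraries), a library stood apart from its group by Dixon's criterion in 25, where chance gives about 1 in 20. Of these, 16 were SVC knockout replicate 4. Its values were Mcm7 90.0 CPM, Top2a 76.8 CPM, Ccnb1 43.9 CPM, Ccnb2 66.7 CPM, Cdk1 17.2 CPM, Birc5 21.4 CPM, Bub1 37.4 CPM and Bub1b 31.1 CPM. They were also Aurka 97.5 CPM, Plk1 52.8 CPM, Cdc20 85.6 CPM, Cenpe 23.4 CPM, Cenpf 24.4 CPM, Kif20a 52.8 CPM and Tpx2 24.7 CPM, and the summed mitotic level of 743 CPM. The library is also the highest in male germ transcripts, and the part of these in the mitotic levels was not tested.

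The other 9 were spread over adipocyte groups. Female knockout replicate 4 stood apart in Pcna (64.7 CPM, the next being 50.6 CPM) and Mcm3 (8.39 CPM). Female control replicate 1 stood apart in Mcm5 (3.71 CPM), Rrm2 (1.08 CPM) and Tpx2 (1.83 CPM). Male control replicate 6 stood apart in Mcm6 (11.0 CPM) and Ccnb2 (0.633 CPM), and male control replicate 5 in Ube2c (2.90 CPM). Male knockout replicate 5 stood apart in the summed S phase level (179 CPM), and it is the library without which Rrm1 was called.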

How the results depend on the processing

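No member was called between genotypes under any alternative, except Rrm1 in male adipocytes and in the difference between the sexes without male knockout replicate 5 (members called 0 to 1 in each as libraries were left out). Counts of called genes changed more. In male adipocytes they were 10 in the fit reported, 159 with DESeq2, 17 with title numbers as a replicate block, 6 with both groups fitted alone and 4 to 332 with a library left out. In female adipocytes they were 67, then 206 with DESeq2, 26 alone and 32 to 89. The difference between the sexes went from 2 to 1 with no filter, 23 with DESeq2, 1 with the block and 0 to 22. SVC went from 0 to 76 with DESeq2, 1 with the block, 3 in the fit of all male libraries and 0 to 1. The difference between fractions went from 0 to 22 with DESeq2 and 0 to 1. The cause of these changes was not tested.

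With a library left out, the S phase median ranged from -0.19 to 0.091 in male adipocytes (Mcm2 -0.19 to 0.14, Mcm5 -0.22 to 0.21), 0.12 to 0.41 in SVC, 0.97 to 1.25 between control fractions (Tyms -0.005 to 0.45) and 0.025 to 0.39 in the difference between fractions. The mitotic median ranged from -0.021 to 0.43 in the difference between the sexes, 0.018 to 0.51 between the sexes (Tpx2 -0.020 to 0.58), -0.018 to 1.17 in SVC, 3.07 to 4.10 between knockout fractions and -0.39 to 0.64 in the difference between fractions. Without both germ-transcript libraries the last 2 were 3.07 and -0.24, and Mcm7 between knockout fractions was -0.36 (-0.36 to 0.47 with a library left out).

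In SVC, leaving out a library moved Mcm7 from -0.15 to 0.79, Ccnb1 -0.47 to 2.03, Ccnb2 -0.14 to 1.84, Bub1 -0.38 to 2.44, Aurka -1.16 to 2.82, Plk1 -1.35 to 3.03, Cdc20 -0.51 to 2.36, Cenpe -0.58 to 1.18, Cenpf -1.35 to 1.62 and Kif20a -0.31 to 1.99. The replicate block drops knockout replicate 4, which has no control of its number, and gave a mitotic median of -0.025, with Mcm7 -0.15, Ccnb1 -0.29, Ccnb2 -0.025, Bub1 -0.091, Aurka -0.87, Plk1 -0.72, Cdc20 -0.31, Cenpe -0.59, Cenpf -1.14 and Kif20a -0.16. Without both libraries Bub1b was -0.037, Aurka -0.20, Cenpe -0.23 and Cenpf -0.55. TTTGAA alone was in 1 S phase promoter.

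Not every same-numbered pair of libraries of both genotypes correlated above 0.1 (-0.15 to 0.10 in males, -0.05 to 0.45 in females with 4 of 6 pairs at 0.20 or more, and -0.28 to 0.35 in SVC), nor did every pair of control fractions (-0.04 to 0.20). These numbers were used as blocks in alternative fits only. A block within sex could not be fitted for the sex comparison. The blocks changed no call of a member other than those given between knockout fractions. DESeq2 called 26 members higher between control fractions and 26 between knockout fractions, giving Aurka, Plk1 and Cenpf no adjusted p in either. Members with few counts limit the adipocyte results.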
